A study of Mus musculus with 6 samples.

Results

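mmu-miR-204-5p and mmu-miR-211-5p (miR-204-5p and miR-211-5p below) are the 5p products of a pair of paralogous hairpins, and both were read here in whole kidney of male C57BL/6 mice. The members were the rows of the array files that carry these names, 2 of the 1247 mouse miRNAs on the array. They were represented by 6 of 3105 probes and 80 of 49880 spots per array. C57BL/6 is a standard inbred laboratory strain, and by the labels age was the only condition varied. Array position also differed in part with age, as given below. The 3 samples of 20-month-old males and the 3 samples of 2-month-old males were each hybridised to a 1-colour Agilent miRNA array, which reports fluorescence (processed intensity, in scanner units) for every spot. The study's design text speaks of separate RNA preparations without tying them to animals, so every p-value refers to the spread among preparations, some of which may be technical.

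MicroRNAs pair through a short 5′ stretch, the seed, with matching sites in messenger RNAs and lower their translation and stability. miR-204 is made from an intron of Trpm3, a cation channel gene, and is known from kidney tubule epithelium and from the retinal pigment epithelium. In human renal carcinoma it is known as a target of the VHL tumour suppressor that restrains autophagy. miR-211 is made from an intron of Trpm1, a related channel gene, and is best known from melanocytes, where the factor MITF drives it together with its host. In the RefSeq gene table (GRCm38.p6) 1 gene spans each hairpin, Trpm3 for Mir204 and Trpm1 for Mir211.

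The mature sequences, credited to RefSeq (GRCm38.p6), are shown because they tell how alike the paralogues are. Probe sequences were not used here, and whether a probe for one also binds the other was not tested. Capitals mark the seed, bases 2 to 8 from the 5′ end.
miR-204-5p: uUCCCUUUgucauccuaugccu
miR-211-5p: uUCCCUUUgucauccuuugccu
They lie at chr19:22750610-22750631 and chr7:64205831-64205852, both on the plus strand. The 22 bases of miR-204-5p and miR-211-5p are identical at 21 positions (95.5%). The single difference is A17U (base of miR-204-5p, position counted from 1 at the 5′ end, base of miR-211-5p), which lies outside the seed. The seed UCCCUUU occurs in 3 mouse mature miRNAs of the RefSeq table, and of these miR-204-5p and miR-211-5p are the 2 on the array. The third, miR-7670-3p, is not among the array's names. The opposite arms are shown because one of them gave signal where its partner did not.
miR-204-3p: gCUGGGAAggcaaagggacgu
miR-211-3p: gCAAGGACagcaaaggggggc
The 3p arms are less alike, with 14 of 21 positions identical (66.7%) and different seeds. The hairpins are shown whole, with both arms in capitals.
Mir204: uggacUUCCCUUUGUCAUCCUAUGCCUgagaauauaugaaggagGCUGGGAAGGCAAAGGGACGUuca
Mir211: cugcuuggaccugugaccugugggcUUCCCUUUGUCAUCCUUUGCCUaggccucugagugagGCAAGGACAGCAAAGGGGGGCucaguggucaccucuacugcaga
Mir204 covers 68 bases (chr19:22750605-22750672, plus strand) and Mir211 covers 106 bases (chr7:64205806-64205911, plus strand).

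The arrays as a whole set the limits of these values. The scanner software marks spots as well above background, and a probe counted as such with the mark on over 50% of the spots kept. By this rule 177 to 206 miRNAs had a probe well above background on the 20-month arrays, against 193 to 209 on the 2-month arrays. To describe the tissue, 17 miRNAs known from kidney epithelium were listed. Of these, 16 were well above background on all 6 arrays, the exception being miR-215-5p, against 173 of the 1247 miRNAs on the array. This list was chosen with earlier results of these data known, so it is no independent check of the tissue. Of 15 miRNAs typical of other organs, 10 were above background on no array and 2 on all of them. The summed level of the kidney list was 36.9 to 41.1 times the array's scaling value at 20 months and 37.3 to 42.2 at 2 months. The summed level of 7 blood miRNAs was 7.21 to 8.15 at 20 months and 9.0 to 9.997 at 2 months, and that of 7 vessel and stroma miRNAs was 9.04 to 9.82 and 8.29 to 8.99, in the same order of ages. Both of these groups of values stood apart by age, as did 30.6% of the 193 miRNAs tested for age, taken singly. The vessel and stroma values did so narrowly, with 8.99 as the highest at 2 months and 9.04 as the lowest at 20 months. Most of the blood sum is the signal of miR-451a. The part of both groups in the results below was not tested. The label of tubular origin could not be checked in whole-tissue RNA.

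In kidneys of both ages miR-204-5p was detected and miR-211-5p was not. No difference in miR-204-5p between the ages was detected, and the 95% interval of the ratio of 20 to 2 months ran from 0.824-fold to 1.15-fold. No spot of miR-211-5p was well above background on any array. The opposite arm of each hairpin behaved the other way round, where miR-211-3p probes gave signal well above background on every one of the 6 arrays and miR-204-3p probes on none. Whether the miR-211-3p probes also bind another RNA was not tested, so their signal is given under the name on the array. Fewer cells that make a miRNA and less of it per cell cannot be told apart in these whole-kidney samples.

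For miR-204-5p the array carries 2 probes of 20 spots each. The bright one, A_54_P2396, gave processed intensities of 70.8 ± 12.1, 123.1 ± 10.6 and 78.2 ± 9.21 on 20-month arrays 1 to 3 (mean ± SD over the kept spots). On 2-month arrays 1 to 3 it gave 85.0 ± 7.29, 71.0 ± 7.45 and 85.5 ± 6.89. Each of its 111 kept spots was well above background. The mean was 1.92 to 3.33 times the lowest signal that counted as well above background on the same array, so the miRNA was measured above the detection limit but not far from it.

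The second miR-204-5p probe, A_54_P2397, was much dimmer. Its means were 9.92, 11.8 and 12.6 units on the 20-month arrays and 10.6, 6.34 and 9.24 units on the 2-month arrays. None of its kept spots was well above background, yet 24 of its 116 kept spots (20.7%) exceeded the 95th percentile of the negative control spots of their own array. The signal of A_54_P2397 was 9.57 to 16.1% of that of A_54_P2396 at 20 months and 8.93 to 12.5% at 2 months. Of 165 miRNAs with 2 probes that were detected on all 6 arrays, 35 (21.2%) had exactly 1 probe above background on all 6. Their other probe could be above background on some arrays, whereas A_54_P2397 was on none. The share is therefore not that of miRNAs with a single responding probe. The level of miR-204-5p thus rests almost wholly on A_54_P2396.

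**Figure D1:**
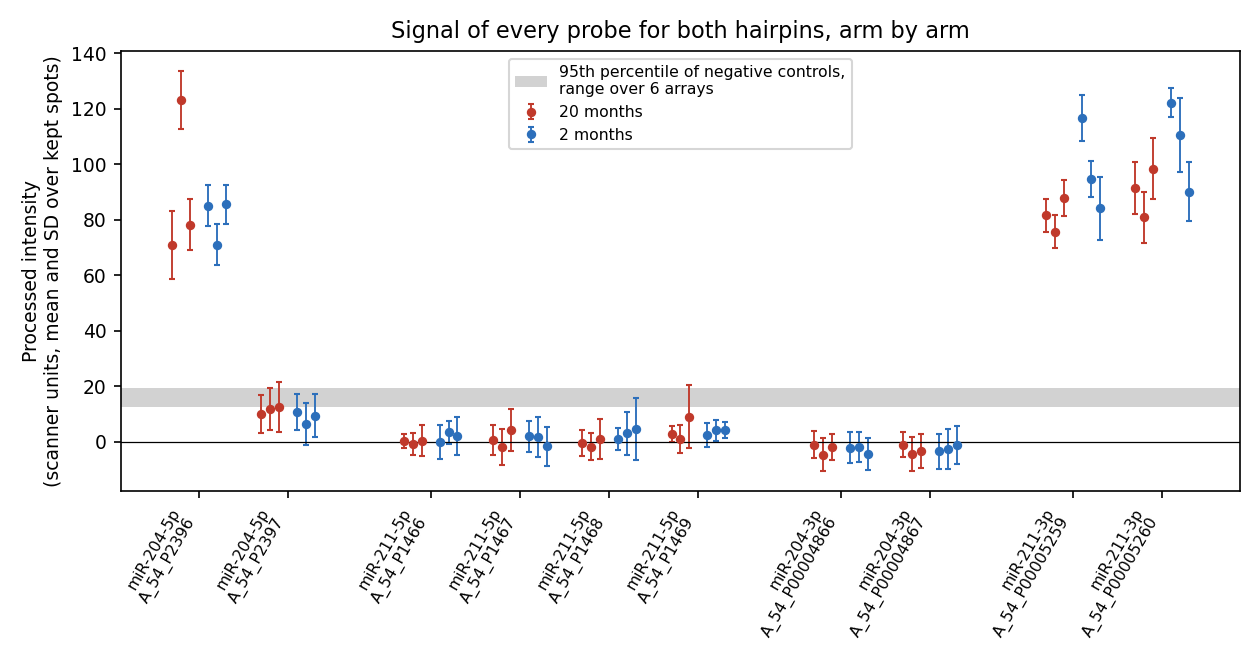
Processed intensity (scanner units) of the 10 probes for the 4 arms of both hairpins, with 1 point per array (20 months in red, 2 months in blue, replicates 1 to 3 left to right) and bars for the SD over kept spots. The grey band spans the 95th percentile of the negative control spots, 12.5 to 19.2 units over the 6 arrays; one miR-204-5p probe and both miR-211-3p probes lie above it, and all miR-211-5p and miR-204-3p means lie below it.

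Summed over both probes, miR-204-5p gave 80.8, 134.9 and 90.7 intensity units on 20-month arrays 1, 2 and 3, and 95.6, 77.3 and 94.7 units on 2-month arrays 1, 2 and 3. The highest value was that of 20-month array 2, and the groups overlapped. That array was also the brightest of the 6, with a 75th percentile over the detected probes of 2054 units, where the other 5 arrays had 1171 to 1415. To compare arrays, each intensity was divided by this percentile. The spread of miR-204-5p over the 6 arrays shrank with this step, from a ratio of 1.74 between the highest and the lowest array to a ratio of 1.24.

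**Figure D2:**
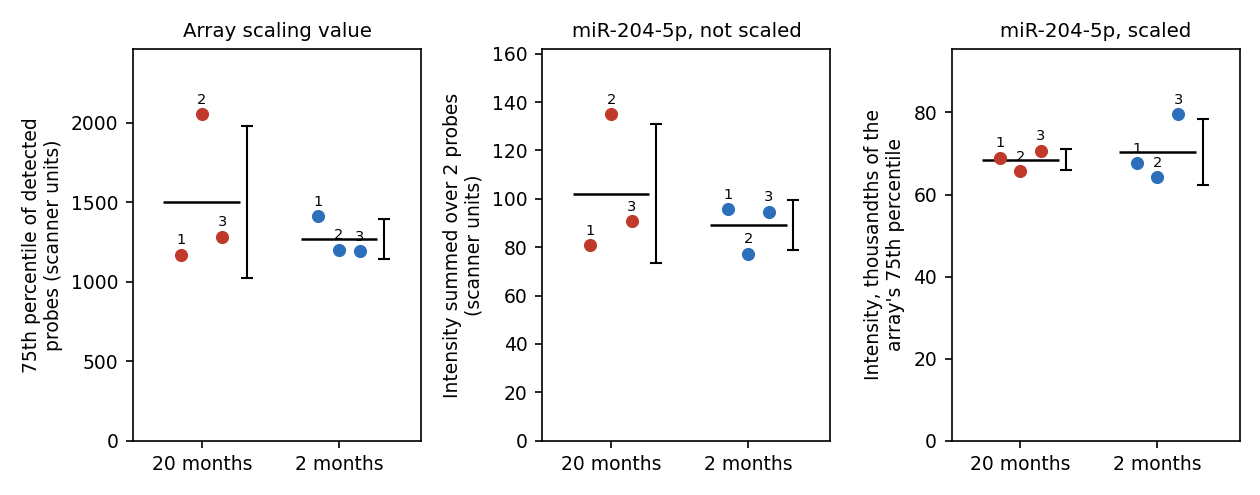
Each array's scaling value, the summed intensity of miR-204-5p before scaling (scanner units) and after it (thousandths of the array's 75th percentile), with replicate numbers beside the points, bars for the group means and error bars for the SD (n = 3). The 20-month array 2 stands highest in the first and second panels and is the lowest of the 20-month arrays in the third.

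After scaling, miR-204-5p stood at 69.0, 65.7 and 70.7 thousandths of the 75th percentile on 20-month arrays 1 to 3. On 2-month arrays 1 to 3 it stood at 67.6, 64.3 and 79.5 thousandths. The 2-month array 3 was the highest and the 20-month values lay inside the range of the 2-month ones. The means were 68.4 ± 2.55 at 20 months and 70.5 ± 8.02 at 2 months (SD, n = 3 each). The coefficient of variation was 3.72% at 20 months and 11.4% at 2 months, a difference in spread that was not tested.

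On the log2 scale miR-204-5p averaged -3.87 ± 0.05 at 20 months and -3.83 ± 0.16 at 2 months (SD, n = 3 each). The difference was -0.04 ± 0.10 (log2, ± SE), or 0.98-fold, with a 95% interval of -0.28 to 0.21 on the log2 scale (limma adjusted p = 0.842 over 193 tested miRNAs). An exact two-sided permutation test of the same values gave p = 0.9, where 3 arrays against 3 cannot go below 0.1. miR-204-5p was the 1 member that passed the detection filter, and 0 members were called by limma, against 7.77% of the 193 miRNAs tested (4.15% higher and 3.63% lower at 20 months). Its unadjusted p of 0.729 was above 0.05, a threshold that 25.4% of the tested miRNAs passed (15.5% as lower). The ages did not overlap for 30.6% of the tested miRNAs (10.4% higher, 20.2% lower), and miR-204-5p was not one of these. Its spread between replicate arrays was ordinary for this series, with a pooled SD of 0.12 (log2), the same as the median of all tested miRNAs.

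The sign of the miR-204-5p difference had no fixed direction. Over 22 alternative settings it ranged from -0.10 to 0.38 and was below 0 in 16 of them, and the lowest limma adjusted p was 0.294. The settings that changed only the tested set, the floor, limma's variance model or the replicate block returned the reported difference. They could not change its sign, although they are counted among the 16. The value of 0.38 came from scaling to the 75th percentile of all probes, under which the median over all tested miRNAs moved up by 0.41 as well. Set against the median of all tested miRNAs, miR-204-5p stood at 0.05 under that scaling and equally at 0.05 in the reported fit, since both are a constant per array, and at 0.19 under quantile normalization. Without 2-month array 3, which held the highest level, the difference was 0.05 (limma adjusted p = 0.749).

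Slide rows were read from position numbers in the deposited array names, and whether the arrays shared a slide was not read. By these numbers the 20-month arrays lay in 2 rows, and array 1 had the row number of the 3 arrays of 2-month kidney. Against the 2-month mean, miR-204-5p stood at -0.02 on 20-month array 1, at -0.10 on array 2 and at 0.01 on array 3. With slide row as a block the difference was -0.02, which is that of 20-month array 1 alone. The other 20-month arrays had no 2-month array in their row and added nothing to it. The bright probe alone, fitted with the 354 probes that passed the detection filter, gave -0.07 ± 0.10 (limma adjusted p = 0.693), where 5.37% of probes were called, 1.69% as lower.

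**Figure D3:**
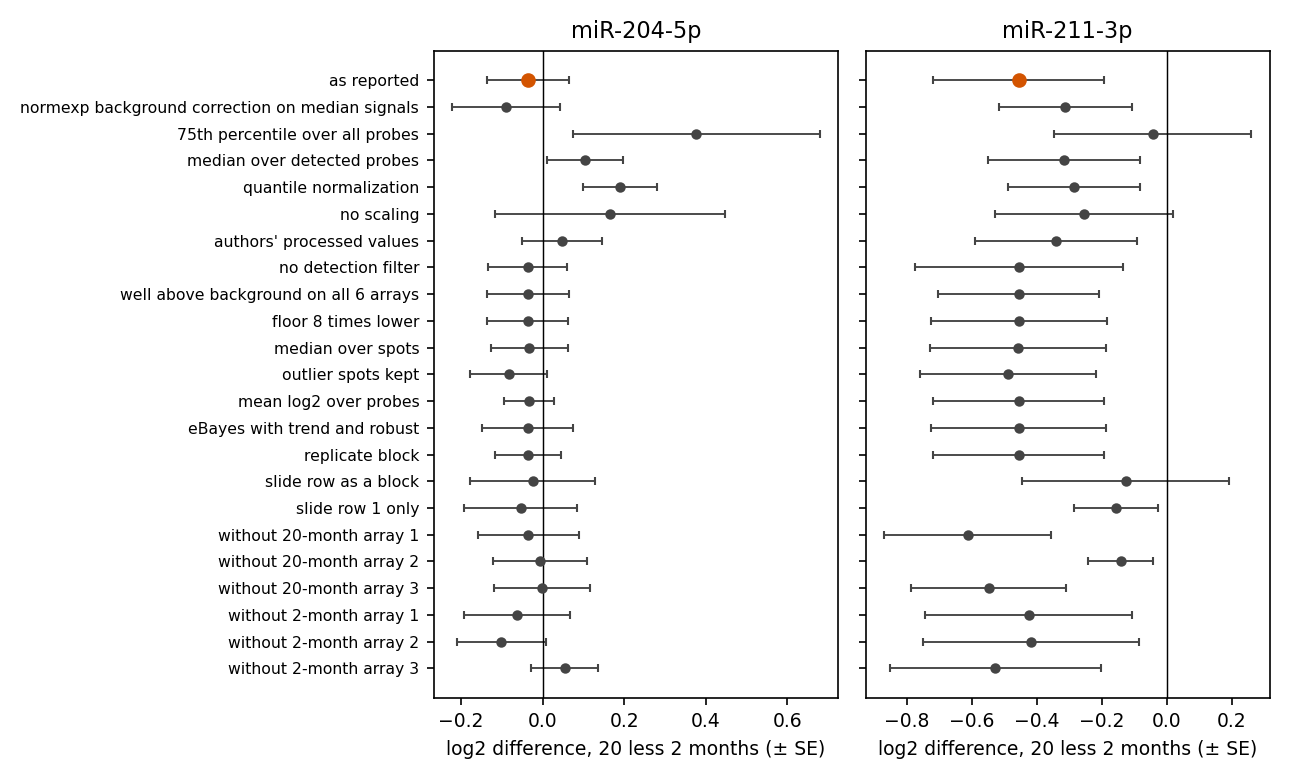
Difference between 20-month and 2-month kidney (log2, points) with its limma SE (bars) for miR-204-5p and for miR-211-3p under each setting, the reported one in orange at the top. miR-204-5p lies on both sides of 0, up to 0.38, while miR-211-3p stays below 0, between -0.61 and -0.04.

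miR-211-5p gave no signal that could be told from the array's background. Its 4 probes of 10 spots each summed to 2.96, -3.83 and 14.2 intensity units on 20-month arrays 1 to 3, and to 5.02, 12.0 and 8.90 units on 2-month arrays 1 to 3. These sums overlap between ages. They amount to at most 36.8% of the lowest signal that counted as well above background on the same array. A mean below 0 arises because the scanner software subtracts an estimated background.

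The single spots tell the same of miR-211-5p. Of its 234 kept spots on 6 arrays, 0 were well above background, and 2 (0.855%) exceeded the 95th percentile of the negative control spots of their array. Per spot, the miR-211-5p probes averaged 0.70, -0.93 and 3.55 units on the 20-month arrays and 1.25, 2.98 and 2.12 units on the 2-month arrays. The negative control spots without outliers averaged 2.38, 2.86 and 3.55 units on the 20-month arrays, and 2.99, 2.49 and 3.12 units on the 2-month arrays, with SDs of 5.32 to 7.73. Among the 4 probes A_54_P1469 had the highest mean on 5 of the 6 arrays, with 8.94 ± 11.4 units on 20-month array 3 as its largest value (SD over 10 spots).

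No fold change is given for miR-211-5p, because both ages were below background. It was not well above background on any of the 6 arrays, and the scanner software's own detection flag was 0 on all of them. All 6 levels were below the floor of -5.22 (log2). This floor was set from the dimmest probes above background, as the middle value over the 6 arrays. Any miR-211-5p in these kidneys was not detectable at this signal, which does not show that it is absent. For the same reason the planned comparison of miR-204-5p with miR-211-5p within arrays could not be run.

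Each hairpin also gives a 3p arm, and of most hairpins one arm accumulates more than the other. The 3p arms gave the reverse picture. miR-204-3p, the partner of miR-204-5p, summed to -2.29, -9.21 and -5.40 units at 20 months and to -5.82, -4.61 and -5.74 units at 2 months. It was not above background on any array, with 0 of 226 kept spots above the 95th percentile of the negative controls. miR-211-3p, the partner of the undetected miR-211-5p, had every one of its 227 kept spots above that percentile.

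miR-211-3p is among the named opposite arms, and its age comparison was added after its detection was seen. Its 2 probes summed to 173, 156 and 186 intensity units on 20-month arrays 1 to 3, and to 239, 205 and 174 units on 2-month arrays 1 to 3. The ages overlapped in the unscaled sums. The 2 probes tracked each other closely, with A_54_P00005260 at 107 to 112% of A_54_P00005259 at 20 months and at 105 to 117% at 2 months.

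On the log2 scale miR-211-3p stood at -2.76, -3.71 and -2.79 on 20-month arrays 1 to 3 and at -2.57, -2.55 and -2.77 on 2-month arrays 1 to 3. One array, 20-month array 2, stood apart from the others, and the groups overlapped. The means were -3.09 ± 0.54 at 20 months and -2.63 ± 0.12 at 2 months (SD, n = 3 each). The difference of -0.46 ± 0.26, or 0.73-fold, did not pass the test (limma adjusted p = 0.324, 95% interval -1.09 to 0.18). With slide row as a block the difference was -0.13, again that of 20-month array 1 alone against the 2-month mean. Without 20-month array 2 it was -0.14 ± 0.10, so 1 array carried most of it.

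That array was the one with the largest scaling value, 2054 units. Its miR-211-3p signal was the lowest of the 6 before scaling too, at 156 units, while its miR-204-5p signal before scaling was the highest. The pooled SD of miR-211-3p between replicate arrays was 0.40 (log2), against 0.12 for miR-204-5p. The part of the scaling in this difference was not tested beyond the alternatives, in which it was -0.25 with no scaling, -0.28 with quantile normalization and -0.04 with the 75th percentile over all probes.

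**Figure D4:**
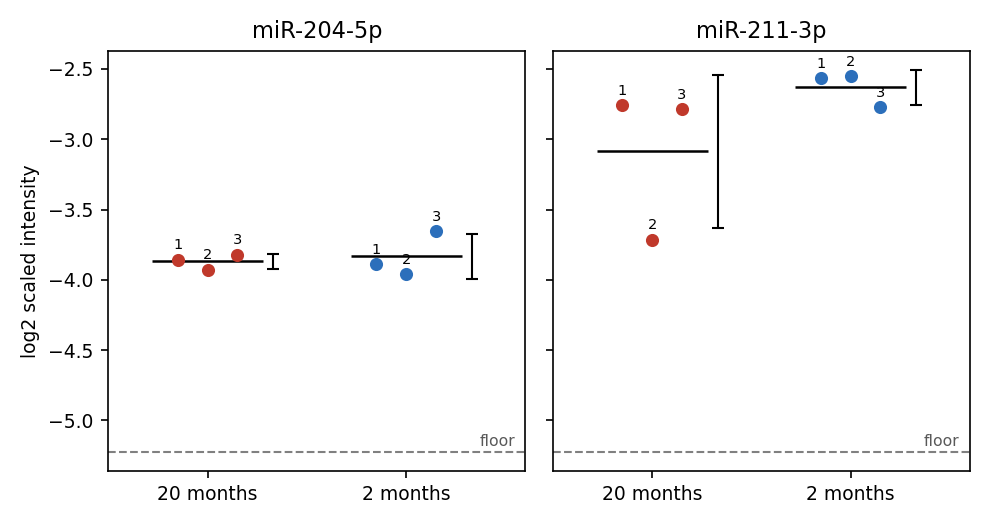
Level (log2 of intensity divided by the array's 75th percentile) of miR-204-5p and miR-211-3p on the 3 arrays of each age, with replicate numbers beside the points, bars for means and error bars for the SD. The dashed line is the floor of -5.22, at which miR-211-5p and miR-204-3p lie on all 6 arrays; levels of different miRNAs are not comparable as amounts.

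The authors' deposited table of processed values gives the same order of detection. In it miR-204-5p is -1.47, -1.33 and -1.41 on 20-month arrays 1 to 3 and -1.49, -1.56 and -1.30 on 2-month arrays 1 to 3 (log2 relative to 1 constant per array). The groups overlap there too, and the difference is 0.05 ± 0.10 (limma adjusted p = 0.789). miR-211-5p and miR-204-3p hold the same value on each array in that table, the one the scanner software assigns to undetected miRNAs.

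The miRNAs whose log2 profile over the 6 arrays lay closest to that of miR-204-5p were miR-23b-3p, miR-25-3p, miR-497-5p and miR-342-3p. Their profiles, each centred on its own mean, differed from that of miR-204-5p by a root mean square of 0.06 (log2) each, against a median of 0.16 over all tested miRNAs. All 6 arrays enter this measure, which favours miRNAs that vary little and says nothing of shared control. The same measure was applied to miR-211-3p after its values were seen. It gave miR-1224-5p, miR-680, miR-6538 and miR-5109, at 0.12 to 0.13, against a median of 0.40. Each of the 4 was lowest on 20-month array 2, as miR-211-3p was, which follows from their being picked for likeness to it.

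**Figure D5:**
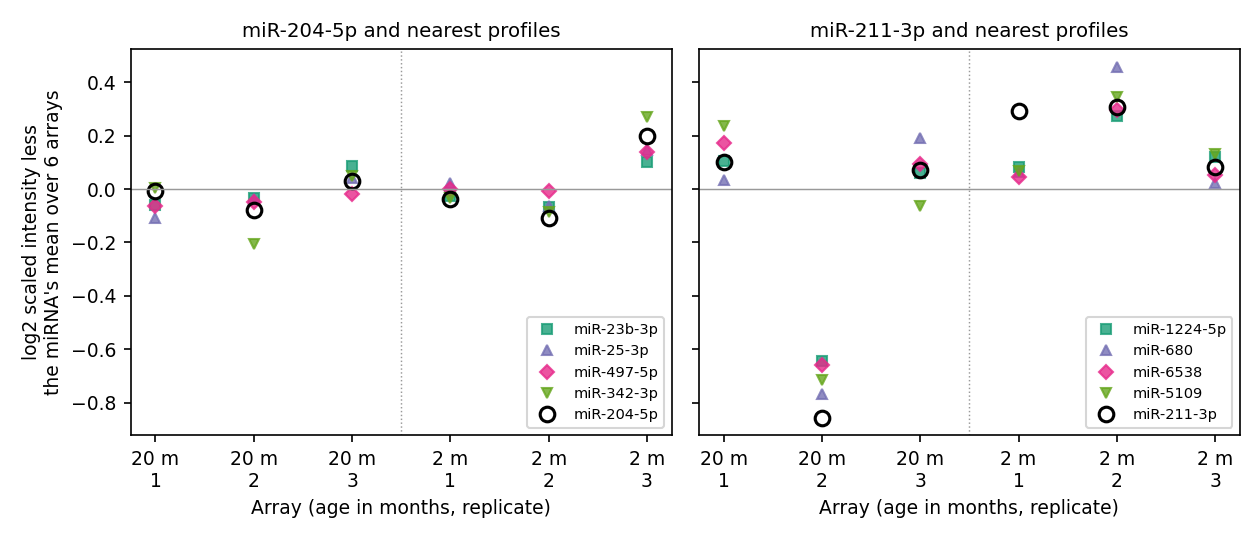
Level on each array less the miRNA's own mean over the 6 arrays (log2) for miR-204-5p and for miR-211-3p (open circles) with the 4 nearest miRNAs of each (filled symbols). The miRNAs of the miR-204-5p panel lie between -0.20 and 0.27, and in the miR-211-3p panel all 5 miRNAs are lowest on 20-month array 2. The nearest miRNAs were picked by these same values, so their likeness is no separate finding.

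Among the 16 tested miRNAs of the kidney list, which shares its tissue with miR-204-5p, 0 rose and 1 fell by limma. Before adjustment 3 had a limma p under 0.05. Over all 193 tested miRNAs the shares were 7.77% called and 25.4% under 0.05 before adjustment. The list had a median difference of -0.14, with 12 of 16 below 0, against a median of -0.08 over all tested miRNAs, of which 128 of 193 were below 0. The miRNA that fell was miR-141-3p of the epithelial miR-200 family, at -0.38 ± 0.08 (limma adjusted p = 0.0415). The next smallest p-values were those of miR-200c-3p of the same family, at -0.33 ± 0.11 (limma adjusted p = 0.1), and miR-194-5p, a liver and kidney miRNA, at 0.28 ± 0.09 (limma adjusted p = 0.104). The call of miR-141-3p was lost without any 1 of the arrays other than 20-month array 1, and with the 75th percentile over all probes miR-141-3p stood at 0.031 and miR-200c-3p at 0.078. The difference of -0.04 for miR-204-5p lay within the spread of the list.

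The lists of other cell types and organs were read in the same way, and cell content was not measured. Of the 4 tested miRNAs of other organs 1 was called, against 7.77% of all tested miRNAs, namely the neuronal miR-124-3p. It was well above background on the 3 arrays of 20 months and on 0 arrays of 2 months, so it entered the test through the 20-month arrays alone and was compared with the floor. Against the lowest signal above background it was at least 2.49-fold higher at 20 months (limma adjusted p = 8.63e-05 against the floor, which has no spread). That bound depends on the processing: the log2 difference was 0.51 with normexp, where the call was lost (limma adjusted p = 0.106), and 0.53 with the mean of log2 over probes, against 1.37 as fitted. miR-96-5p of sensory epithelia (-0.49 ± 0.17, limma adjusted p = 0.124) and miR-202-3p of the gonads (-0.17 ± 0.23, limma adjusted p = 0.664) followed by p-value.

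Of the 6 tested vessel and stroma miRNAs 2 rose and 0 fell by limma, where 7.77% of all tested miRNAs were called. Without adjustment 5 had a limma p under 0.05, 3 of them higher and 2 lower at 20 months, against 25.4% of all tested miRNAs. Those that rose come from 1 mesenchymal hairpin family, miR-199a-5p at 0.34 ± 0.06 (limma adjusted p = 0.0258) and miR-199a-3p at 0.40 ± 0.09 (limma adjusted p = 0.0391). Both calls were lost without any 1 of the arrays other than 20-month array 1. miR-214-3p, transcribed with that family, stood at 0.30 ± 0.09 (limma adjusted p = 0.0939). The lower ones, named after their values were seen, were the smooth muscle miRNAs miR-143-3p at -0.27 ± 0.09 (limma adjusted p = 0.12) and miR-145a-5p at -0.25 ± 0.09 (limma adjusted p = 0.149).

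Of the 6 tested blood miRNAs 0 were called by limma, against 7.77% of all tested miRNAs. An unadjusted limma p under 0.05 was reached by 5, against 25.4% of all tested miRNAs. Of these 5, 3 were higher and 2 lower at 20 months. The leukocyte miRNA miR-223-3p stood at 0.55 ± 0.13 (limma adjusted p = 0.051). Both erythroid miRNAs lay lower at 20 months, miR-451a by -0.34 ± 0.08 (limma adjusted p = 0.0528) and miR-144-3p by -0.73 ± 0.25 (limma adjusted p = 0.124), without passing the test. The median difference of the blood list was 0.28 while its summed level was lower at 20 months, a sum in which miR-451a holds most of the signal. The median was 0.19 for vessel and stroma and -0.11 for other organs.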

How the data were processed

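Total RNA with small RNA was ligated to Cy3 and read on 1-colour Agilent arrays (design 046065), per the labels' protocols and file headers. The deposited spot intensity values were background-subtracted by Feature Extraction 11.5.1.1, per the file headers, without scaling across arrays. The deposited flags are 0 or 1, per the file headers. The authors' processed table is on a log2 scale and equalled log2 of the scanner's total signal less 1 constant per array (largest departure 1e-05). Its column medians were -9.49, -10.10 and -9.20 at 20 months and -9.74, -9.21 and -9.21 at 2 months, and what statistic that constant is remains unknown. No spot was saturated (0).

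Outlier spots were left out. Intensities were averaged per probe, scaled by the 75th percentile of the array, taken over the 315 probes that were above background on all 6, summed per miRNA, floored at -5.22 and taken to log2. A miRNA was tested if all 3 arrays of an age detected a probe of it, and the 193 such miRNAs were fitted with limma 3.58.1 in R 4.3.3 (age as the single term, Benjamini-Hochberg, threshold 0.05). The same was done for 354 probes. The procedure was tested on simulated data. The number of arrays limits precision.

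The members and the lists were chosen with earlier results of these data known. The miRNAs named were the members, their opposite arms, seed sharers, the 4 nearest profiles, and from each list the called miRNAs and up to 3 with the smallest p. List names miR-142a, miR-126a were matched to miR-142, miR-126; miR-486a-5p had no match. The headers give mm9 for the design and no coordinates were read from the files, so positions are those of the RefSeq table. The files held median and not mean spot signals, which normexp (offset 50) therefore used. Same-numbered arrays had correlations of deviations of 0.12, -0.58 and 0.31, so numbers were not taken as pairs.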

Additional observations from a re-analysis of the deposited data

How the results depend on the processing

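miR-211-5p was above background on 0 arrays by the scanner's flag and by any single spot, both added after the data were seen. Keeping outlier spots and leaving out each array in turn also gave 0. Those outcomes were fixed, since detection is read array by array and no spot of miR-211-5p was well above background. The other alternatives could give no value for it, since both ages were below background, and its comparison with miR-204-5p within arrays was not run for that reason. miR-204-5p passed the threshold under none of 22 alternatives. Its difference turned above 0 when arrays were scaled to the 75th percentile of all probes (0.38), by quantiles (0.19), not at all (0.17) or to the median of detected probes (0.10), and in the authors' values (0.047). It ranged from -0.10 to 0.054 with 1 array left out. For its bright probe the first 4 of these scalings gave 0.34, 0.10, 0.13 and 0.072, and leaving out 1 array -0.12 to 0.022. miR-211-3p was below 0 in all 22 and past the threshold in none. As for miR-204-5p, several of the 22 returned the reported difference and could not change its sign. The replicate block gave -0.04 ± 0.08 for miR-204-5p.

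The numbers of miRNAs higher and lower at 20 months, 8 and 7 as reported, were 18 and 3 with the median over detected probes, 19 and 2 with quantile normalization, 1 and 1 without scaling, 4 and 2 without a detection filter, 2 and 3 with slide row as a block and 2 and 1 with the replicate block. With normexp they were 4 and 0 (limma's unadjusted p was under 0.05 for 18 lower ones) and in the authors' values 10 and 0 (10 lower). With 1 array left out the higher count ranged from 3 to 12 and the lower from 2 to 27, the 27 without 20-month array 1. With the 75th percentile over all probes miR-141-3p was 0.031, miR-200c-3p 0.078, miR-451a 0.070, miR-143-3p 0.14, miR-145a-5p 0.16 and miR-202-3p 0.24. miR-202-3p was also 0.030 without scaling, 0.23 with slide row as a block, 0.20 in slide row 1 alone and -0.36 to 0.032 with 1 array left out, the positive value without 20-month array 2, and miR-214-3p was -0.028 with normexp. miR-141-3p kept its call in 6 of 22 alternatives, miR-199a-3p in 8 and miR-199a-5p in 11. miR-223-3p, not called as reported, was called in 10. miR-124-3p kept its call in 20 of 21, but it entered the test through the 20-month arrays alone, against a 2-month floor without spread. Its count is therefore not comparable with the others. The cause of these shifts was not tested.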

Other observations

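Only 1 arm above background on all 6 arrays was more frequent than both arms. Of 422 hairpin names with a 5p and a 3p entry, 55 (13%) had the 5p arm and not the 3p arm above background on all 6 arrays, as miR-204 did. The reverse, as for miR-211, held for 46 (10.9%). Both arms were detected for 10 (2.37%) and neither throughout for 311 (73.7%). Arms were read by different probes, so these counts describe detection and not amounts.

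miR-211-3p holds a run of 6 G just before its last base. Of the 1017 array miRNAs with a RefSeq mature sequence it is the 1 with a run of that length. Of the 15 with a run of at least 5 G, 3 (20%) were above background on all 6 arrays, against 139 of the 1002 others (13.9%). This feature was looked up after the detection of miR-211-3p was seen, and miR-211-3p is itself counted among the 15 and among the 3. The shares therefore lend no support of their own, and whether the run bears on its signal was not tested.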
